A study of Mus musculus with 17 samples.

Results

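The genes described here encode parts of the cytosolic ribosome and factors that start and elongate translation. A probe set was taken as a member where the array's annotation gave it 1 gene symbol, and that symbol began with Rpl or Rps and a digit (leaving out the Rps6k kinases), with Rplp, or with Eif2, Eif3, Eif4 or Eef1. This gave 102 probe sets for 74 genes, of 12488 probe sets on the array, which name 8252 genes by a single symbol. There were 22 probe sets for 17 large-subunit (Rpl and Rplp) genes, 26 for 17 small-subunit (Rps) genes, 16 for 13 Eif2 genes, 13 for 10 Eif3 genes, 18 for 11 Eif4 genes and 7 for 6 Eef1 genes. The rule used gene names and no measured value. Another 40 probe sets paired a member gene with other symbols and were left out, so many ribosomal protein probe sets are not covered. The prefixes also brought in Eef1akmt1, a lysine methyltransferase that acts on the elongation factor, and Eif2d, a separate initiator tRNA binding factor.

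RNA came from mouse brain, taken as grey and white matter of the territory supplied by the middle cerebral artery, and the question was what a catalytic antioxidant, AEOL 10150, did to gene expression after transient ischemia. Control pools came from mice given saline 6 h earlier, AEOL control pools from uninjured mice given AEOL 10150 6 h earlier, ischemic pools from mice with 1 h of ischemia and 6 h of reperfusion, and treated ischemic pools from mice given AEOL 10150 intravenously between the same ischemia and reperfusion; each group had 3 arrays, and each array held RNA pooled from 6 brains. A further 5 arrays each held 1 brain treated as in the treated ischemic pools, numbered 11, 12, 13, 14 and 16. Strain, sex, age and dose were not given in the sources used here, nor was whether the untreated ischemic mice received saline. The labels conflicted for AEOL control pool 1, which was titled as given the drug and described as given saline, and for treated ischemic pool 1, which was titled as treated and described without the drug. Treated ischemic pool 2 was described as a first replicate, and brain 11 was titled number 4. Titles were followed for whether the drug was given and for pool numbers. The single brains were told apart and numbered by their descriptions. The ribosomal protein medians are also given without the 2 pools whose drug labels conflict, in the comparisons that use them. The 5 single brains, with pools 2 and 3 of the treated ischemic group, had been deposited on a lower scale (trimmed means of 129 to 210) than the other 10 arrays (2500), so a difference that involves them cannot be fully told apart from the scale set. All 9 neuron marker probe sets were above the floor on every array, with summed intensities of 147000 to 221000 over the pools, while the 3 red blood cell marker probe sets summed to 9350 to 12500 in the ischemic pools and 2720 to 4680 in the control pools. The 6 striatal neuron marker probe sets summed to 35100 to 45600 in the ischemic pools and 52600 to 71800 in the control pools. Their median log2 difference for ischemia was -0.67 without drug (5 of 6 lower) and -0.41 with drug (6 of 6 lower), with 0 passing a test. Because the tissue is a mixture, fewer cells of a type and less RNA per cell cannot be told apart in any result below.

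Each ribosomal protein is one component of the large or small ribosomal subunit, and the mRNAs of many of them start with a C followed by a run of pyrimidines, the 5′ terminal oligopyrimidine (TOP) motif, through which mTOR signalling adjusts their translation. Initiation factor eIF2 carries the initiator tRNA, and eIF2B recharges it with GTP. The kinases encoded by Eif2ak1 to Eif2ak4 phosphorylate eIF2 under stress and so restrain initiation, and the kinase PERK (Eif2ak3) is known for doing this in brain after ischemia and reperfusion. eIF3 is a scaffold on the small subunit, the eIF4 group recognises and unwinds the mRNA cap region, the 4E-binding proteins (Eif4ebp genes) hold back the cap-binding protein eIF4E, and the eEF1 group delivers aminoacyl-tRNA during elongation.

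The pyrimidine motif was looked for in the RefSeq promoter windows of mouse build GRCm38.p6, each running from 250 bases before to 50 after an annotated start, which covered 61 of the 74 member genes. The following stretches, from 40 bases before the start to 20 after it and read 5′ to 3′ on the gene's strand, are shown to set starts with the motif beside starts without it. Capitals mark a run of pyrimidines that begins with C within 5 bases of the start, and sequences without capitals have none. Rps27, Rps18, Rpl13a and Rpl35a encode ribosomal proteins, Eif3f an eIF3 subunit and Eef1a1 the widely expressed elongation factor 1A. Rplp0 encodes a stalk protein of the large subunit, Eif3c a core eIF3 subunit, Eif2s2 the beta subunit of eIF2, and Eef1a2 the elongation factor 1A form of neurons and muscle.
Rps27 (chr3:90213629-90213688, minus strand): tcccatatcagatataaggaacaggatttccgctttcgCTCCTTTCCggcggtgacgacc
Rps18 (chr17:33955646-33955705, minus strand): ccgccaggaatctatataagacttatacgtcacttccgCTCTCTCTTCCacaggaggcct
Rpl13a (chr7:45128726-45128785, minus strand): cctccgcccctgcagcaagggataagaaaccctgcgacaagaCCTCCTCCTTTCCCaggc
Rpl35a (chr16:33056442-33056501, plus strand): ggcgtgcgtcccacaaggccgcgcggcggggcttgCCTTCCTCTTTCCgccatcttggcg
Eif3f (chr7:108934375-108934434, plus strand): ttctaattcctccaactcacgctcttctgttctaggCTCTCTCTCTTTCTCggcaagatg
Eef1a1 (chr9:78481705-78481764, minus strand): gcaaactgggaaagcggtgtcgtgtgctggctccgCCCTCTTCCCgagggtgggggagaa
Rplp0 (chr5:115559427-115559486, plus strand): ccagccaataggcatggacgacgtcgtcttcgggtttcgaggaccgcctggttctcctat
Eif3c (chr7:126566347-126566406, minus strand): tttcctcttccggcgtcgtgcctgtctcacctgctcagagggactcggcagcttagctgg
Eif2s2 (chr2:154892887-154892946, minus strand): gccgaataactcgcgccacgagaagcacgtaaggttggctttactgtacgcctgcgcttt
Eef1a2 (chr2:181156996-181157055, minus strand): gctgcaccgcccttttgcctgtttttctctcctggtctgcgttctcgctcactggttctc

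A C at the annotated start followed by at least 4 pyrimidines was found in 5 of 27 ribosomal protein genes (18.5%) and 7 of 61 member genes (11.5%), against 3.01% of 27025 mouse genes with a window. A wider count added a C within 5 bases of the start, where the base before that C was not a pyrimidine. Its shares were 31.1% of member genes (19 of 61) and 15.6% of all genes. By class they were 35.7% of 14 Rpl, 30.8% of 13 Rps, 46.2% of 13 Eif2, 33.3% of 9 Eif3 and 33.3% of 3 Eef1 genes. Of 9 Eif4 genes, 0 had such a match. The letters AAGATGGC, a core that the factor YY1 is known to bind, were on either strand of the window in 16.4% of member genes and 3.19% of all genes. The letters TATAAA were in 11.5% of member genes and 15.7% of all genes, on either strand. The share with AAGATGGC was 28.6% of 14 Rpl genes and 7.69% of 13 Rps genes. These are matches of letters within the window, and annotated starts can lie some bases from the used one.

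On the array, 84 of the 102 probe sets passed the filter for the 12 pools, which asked for a value above a floor of 109.5 intensity units (6.77 on the log2 scale) on at least 3 arrays, and 85 passed it over all 17 arrays. Values above the floor on all 12 pools were found for 68 probe sets, and for none of the 12 pools for 11, among them both Eef1b2 probe sets and those of Eif4h and Rpl35a. A probe set at the floor has only an upper bound. All levels below are log2 intensities after every array was brought to one trimmed mean, and each probe set was compared only with itself.

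Among the 4 pooled groups no member passed a test in any comparison. Eef1a1 gave 16.24, 16.40 and 16.48 in the control pools, 16.47, 16.30 and 16.42 in the AEOL control pools, 16.50, 16.29 and 16.50 in the ischemic pools and 16.42, 16.47 and 16.55 in the treated ischemic pools. The 4 groups overlapped, and the group means lay between 16.37 and 16.48. Eif3c was the steadiest probe set on the array: among 7420 probe sets above the floor on all 12 pools, it had the smallest standard deviation within groups, 0.05. Its values ran from 14.18 to 14.34 over the 12 pools. The single brains lay at 14.39, 14.21, 14.32, 14.26 and 14.21, within the same span apart from brain 11. The median within-group standard deviation was 0.28 for the 68 members and 0.36 for all 7420 probe sets. Among members above the floor on all pools, the steadiest of the other classes were Eif2s3x, the gamma subunit of eIF2 (0.08), Rpl41, a very short large-subunit protein (0.09), Eef1a1 (0.10), Rps7 (0.15) and the Eif4ebp2 probe set 101072_at (0.19). The widest was Rps29 probe set 162335_at, a small-subunit protein gene, at 1.33, with control pools of 11.45, 8.63 and 12.61.

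**Figure D1:**
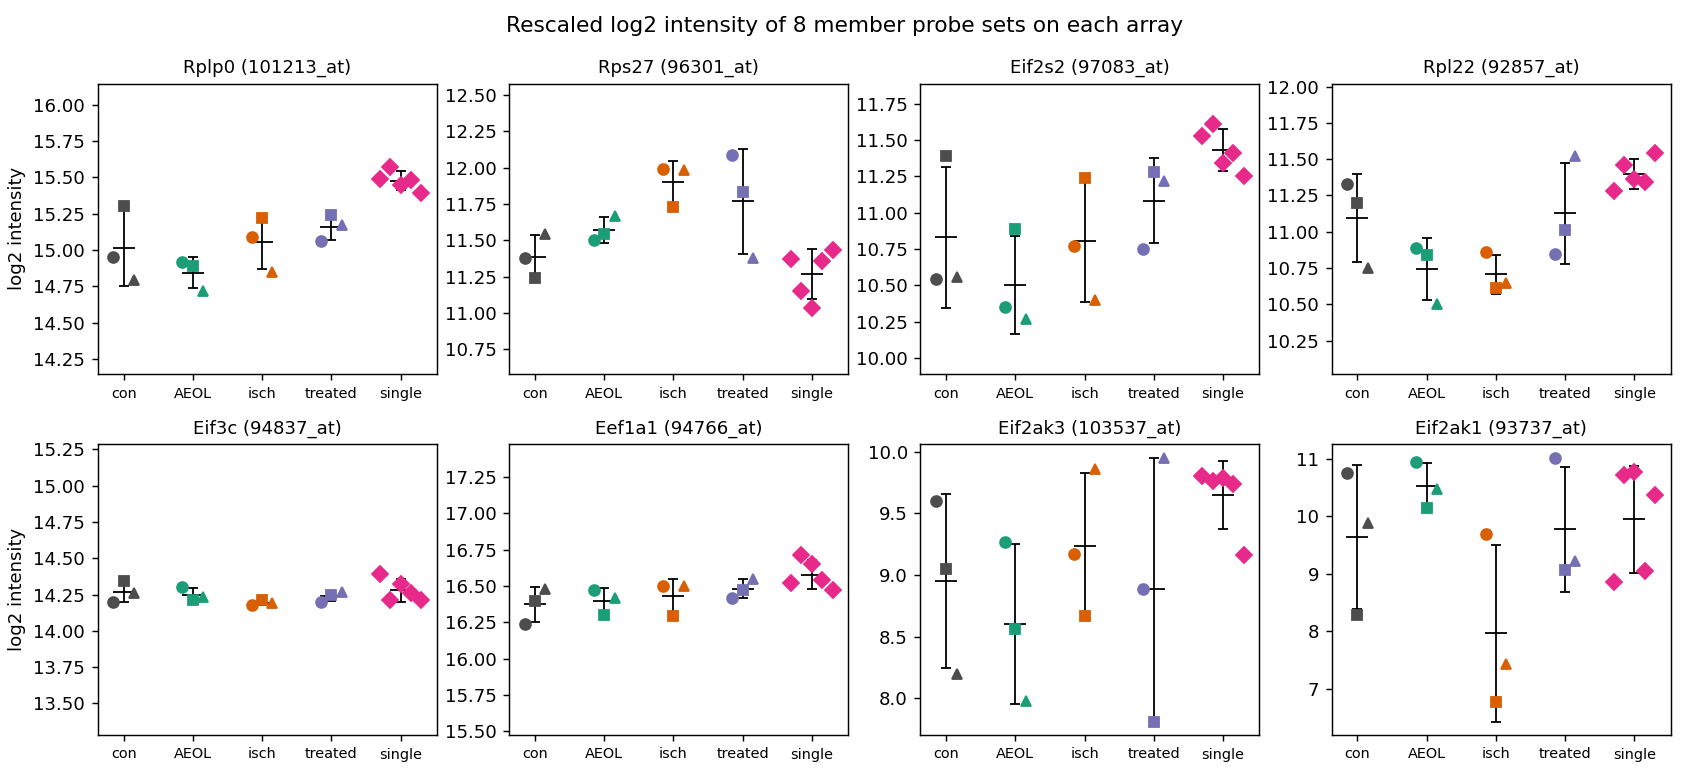
Rescaled log2 intensity (vertical axis) of 8 member probe sets on each array, by group on the horizontal axis: control (con), AEOL control (AEOL), ischemic (isch), treated ischemic (treated) and single treated brains (single). Circles, squares and triangles are pools 1, 2 and 3, diamonds are single brains, and bars are mean ± SD; Eif3c and Eef1a1 are level across groups, Rplp0 is highest in the single brains, and Eif2ak1 has its 2 lowest arrays among the ischemic pools.

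Ischemia without the drug was compared as ischemic minus control pools. Of 84 member probe sets, 0 passed limma's test at an adjusted p under 0.05, against 0.214% of all 10259 probe sets tested. An unadjusted p under 0.05 was found for 1 member (1.19%), Rps27, against 4.12% of all probe sets. Rps27, a small-subunit protein gene, gave 11.38, 11.24 and 11.54 in the control pools, and 11.99, 11.73 and 11.98 in the ischemic pools. All 3 ischemic pools were above all 3 control pools, by 0.52 on average (SE 0.21, 95% interval 0.06 to 0.97, limma adjusted p = 1). In the treated pair, AEOL control pools gave 11.50, 11.54 and 11.67 and treated ischemic pools 12.09, 11.83 and 11.38, which overlapped (difference 0.20, SE 0.21). Over both pairs the Rps27 difference was 0.36 (SE 0.15, adjusted p = 0.918). The single treated brains gave 11.37, 11.15, 11.03, 11.36 and 11.43. They overlapped the untreated control pools and were all below the 3 AEOL control pools, with a difference of -0.30 (SE 0.16, adjusted p = 0.316), the opposite sign to the pools' ischemia differences.

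Few members had groups that did not overlap. In this comparison 2 of 84 members were higher in all ischemic pools, Rps27 and Eif3j1 (an eIF3-associated factor), against 4.07% of all probe sets, and 1 was lower, Eif2d, against 3%. Eif2d gave 10.18, 11.06 and 10.23 in the control pools and 10.18, 9.35 and 10.10 in the ischemic pools, a difference of -0.61 (SE 0.32, adjusted p = 1), with the second pools furthest apart. The class medians of the log2 difference were 0.02 for Rpl, 0.11 for Rps, -0.08 for Eif2, 0.00 for Eif3, -0.02 for Eif4 and 0.05 for Eef1 probe sets, against 0.03 for all probe sets tested. Over all 40 ribosomal protein probe sets, 27 differences were above 0 and 13 below, with a median of 0.06. That median was 0.17 without control pool 2, 0.00 without control pool 1, 0.02 without control pool 3 or ischemic pool 1, and 0.03 without ischemic pool 2.

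Ischemia with the drug was compared as treated ischemic minus AEOL control pools. Of the 84 members, 0 passed (all probe sets, 0.0877%), and 0 had an unadjusted p under 0.05 (all probe sets, 3.44%). Rplp0 gave 14.92, 14.89 and 14.72 in the AEOL control pools and 15.06, 15.24 and 15.17 in the treated ischemic pools. Its groups did not overlap, with a difference of 0.31 (SE 0.19, 95% interval -0.11 to 0.73, limma adjusted p = 1). Rpl6, another large-subunit protein gene, was the other of 2 members whose treated ischemic pools were all higher (all probe sets, 3.75%), and 0 were all lower (all probe sets, 3.64%). Eif2s2 probe set 97083_at differed by 0.58 (SE 0.31) with overlapping groups, while its other probe set, 160365_at, differed by -0.45 (SE 0.61). The class medians ran from 0.01 (Eif4) to 0.11 (Rps), with all probe sets at -0.02. Without the 2 pools whose labels conflict, the ribosomal protein median was 0.08 in place of 0.11, and again 0 members passed. It was 0.02 with the deposited scale set as a block or with only pools on the common scale, 0.01 without AEOL control pool 3 and 0.04 without treated ischemic pool 2.

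Taking both pairs together, 0 members passed for ischemia, where 0.448% of all probe sets did. Rps27 alone had an unadjusted p under 0.05 (1.19% of members, against 4.92% of all probe sets). The ribosomal protein median was 0.07, and 0.11 without the 2 pools whose labels conflict. The 95% intervals show which sizes of change the pools leave possible. Of the 68 members above the floor on all pools, 60 had an interval wholly between -1 and 1 on the log2 scale, and 36 had one wholly between -0.5 and 0.5. The interval for Eif3c was -0.26 to 0.19, for Rpl41 -0.22 to 0.26, for Eif2s3x -0.30 to 0.18 and for Eef1a1 -0.18 to 0.32. For Rps29 probe set 162335_at, Eif2s2 probe set 160365_at and the second Eif4ebp2 probe set, 94353_at, the intervals were -1.73 to 1.31, -1.41 to 0.51 and -1.33 to 0.83, so a fall of over 1 was within each of them.

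**Figure D2:**
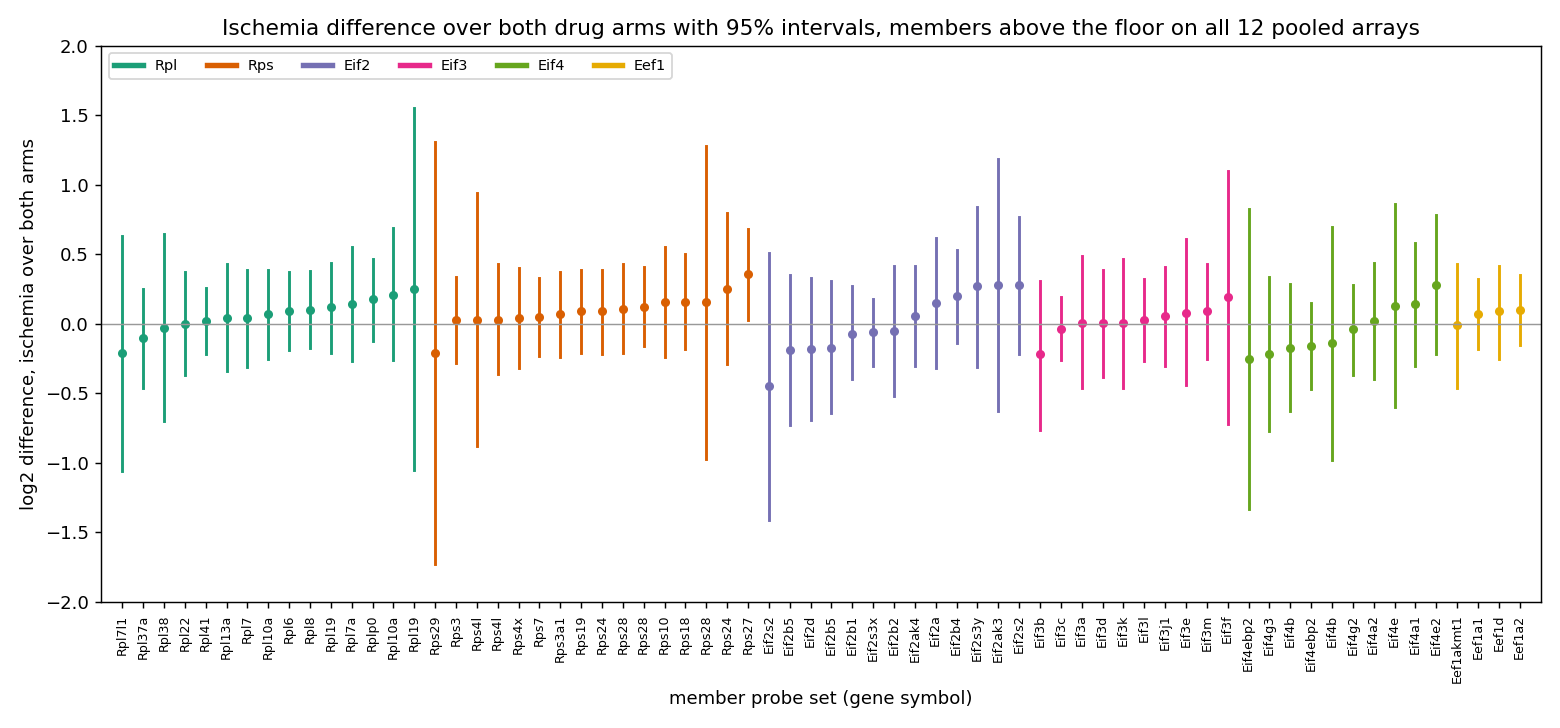
Log2 difference with its 95% interval (vertical axis) for ischemia over both drug arms, for the 68 member probe sets above the floor on all 12 pools, ordered within each class (colour) by the difference. The interval of Rps27 lies above 0, at 0.03 to 0.68, and those of the other members include 0.

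The eIF2 kinases and their partner eIF2B were measured for several genes. Eif2ak3 (PERK) gave 9.60, 9.05 and 8.20 in the control pools and 9.17, 8.67 and 9.86 in the ischemic pools, an overlap with a difference of 0.29 (SE 0.58, adjusted p = 1). Eif2ak4, the kinase that senses uncharged tRNA, lay between 9.36 and 10.29 over the 12 pools, with an ischemia difference of -0.03 (SE 0.23). Eif2ak1, the heme-regulated kinase, had the largest mean difference of any member for ischemia without drug: the control pools gave 10.75, 8.28 and 9.89 and the ischemic pools 9.70, 6.77 (the floor) and 7.43. The groups overlapped, and the difference of -1.67 (SE 0.84, 95% interval -3.54 to 0.20) did not pass (limma adjusted p = 1). The treated ischemic pools gave 11.02, 9.07 and 9.22 for Eif2ak1, 1.80 above the ischemic pools (SE 0.84, adjusted p = 1), again with overlap. In each of the 4 groups the first pool was the highest and the second the lowest for this probe set. Eif2ak2, the kinase activated by double-stranded RNA, was near the floor, with a highest value of 8.88. For eIF2B, the ischemia differences without drug were -0.36 (SE 0.30) and -0.08 (SE 0.34) for the 2 probe sets of Eif2b5, the catalytic subunit, and 0.32 (SE 0.21) for Eif2b4, with overlapping groups.

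For comparison, genes of the response that follows eIF2 phosphorylation were read in the same pools. In that list, 1 of 16 probe sets passed for ischemia without drug and 1 with drug, and both were of Atf3, a stress-induced transcription factor. The median of the list was 0.37 without drug, with 14 higher and 2 lower, and 0.43 with drug, with 12 higher and 4 lower. One Atf3 probe set was higher by 3.59 without drug (SE 0.24, limma adjusted p = 0.000266) and by 2.74 with drug (SE 0.24, adjusted p = 0.00365). Ppp1r15a, which brings a phosphatase to eIF2, differed by 2.38 (SE 0.98, adjusted p = 1), Ddit3 by 0.85 (SE 0.32) and Atf4 by 0.32 (SE 0.20). None of these 3 passed, although the groups did not overlap for Ppp1r15a and Ddit3. No probe set passed for ischemia in either pair among 26 of other translation factors and ribosome parts (medians -0.07 and 0.02), 16 of the mTOR and S6 kinase arm (-0.07 and -0.10), 23 of ribosome biogenesis (-0.01 and 0.07), 22 of cytosolic aminoacyl-tRNA synthetases (-0.06 and -0.04) and 74 of mitochondrial ribosomal proteins (-0.06 and 0.12).

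In the eIF4 and eIF3 groups the differences for ischemia without drug lay between -0.45 and 0.72, and none passed. Eif4a2, the helicase form of neurons, gave 14.74, 15.01 and 14.43 in the control pools and 14.96, 15.12 and 14.21 in the ischemic pools, with the third pool lowest in both (difference 0.04, SE 0.27). Eif4e, the cap-binding protein, differed by -0.04 (SE 0.46) at probe set 99097_at, and Eif4ebp2, the main 4E-binding protein of brain, by -0.21 (SE 0.20) at probe set 101072_at. Eif4g3, a scaffold of the cap complex, gave 13.50, 14.21 and 13.58 in the control pools and 12.88, 13.97 and 13.11 in the ischemic pools, an overlap with a difference of -0.45 (SE 0.36). Of the eIF3 subunits, Eif3a differed by -0.12 (SE 0.30) and Eif3c by -0.07 (SE 0.14). Eif3f was wider: control pools gave 9.92, 9.24 and 11.30 and ischemic pools 10.32, 10.97 and 11.32.

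**Figure D3:**
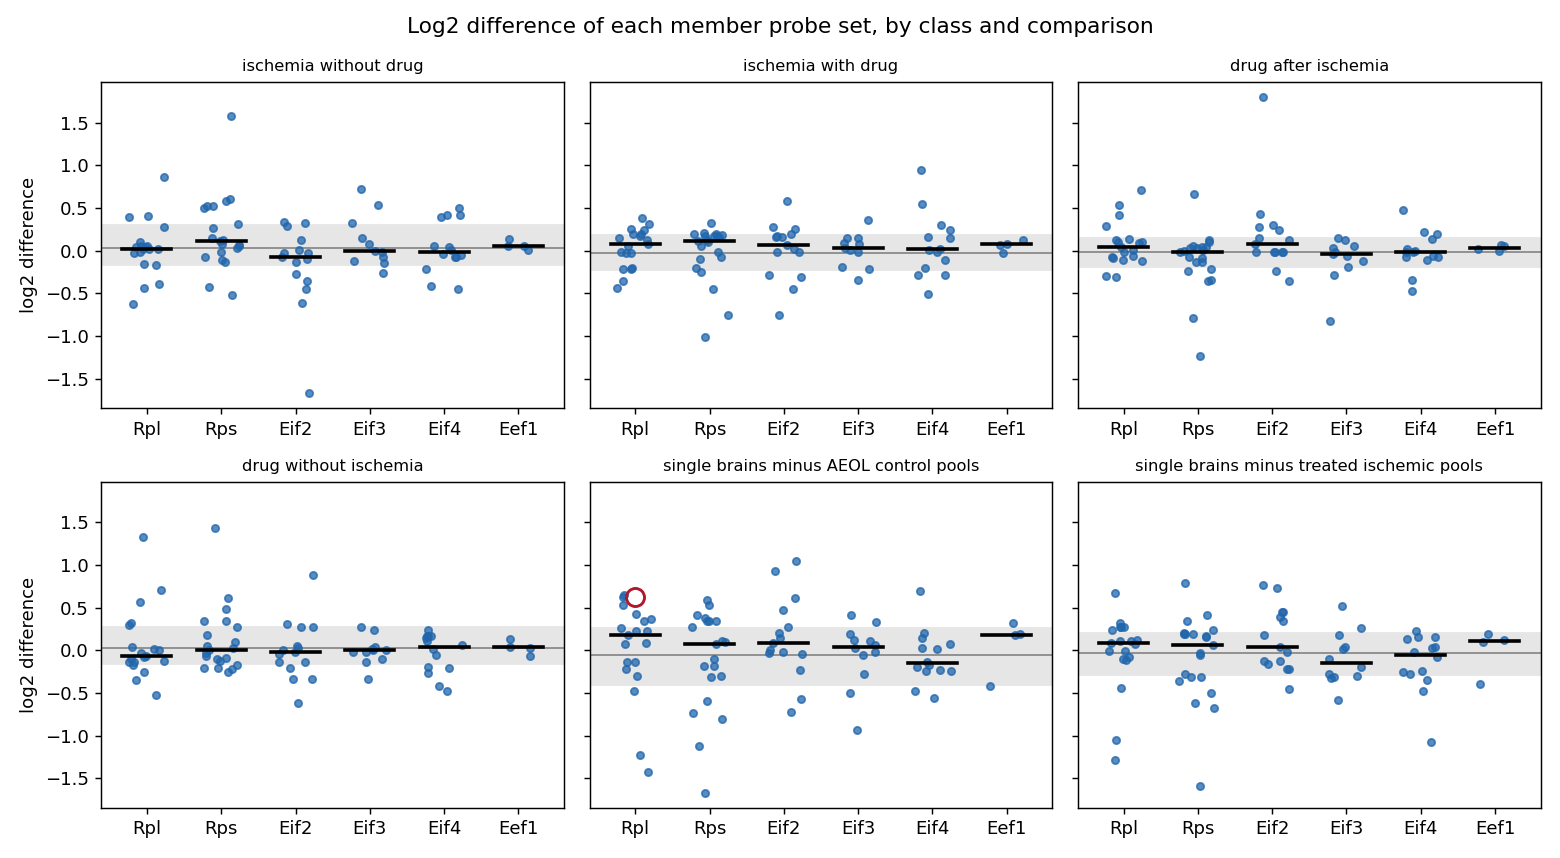
Log2 difference (vertical axis) of each member probe set tested, by class (horizontal axis), in 6 comparisons. Points are probe sets, thick bars class medians, the grey line and band the median and middle 50% of all probe sets tested, and the red ring marks Rplp0, the member that passed the test; the class medians lie between -0.15 and 0.19 in all 6 panels.

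No member passed the test for AEOL 10150, after ischemia or in uninjured brain. After ischemia, 0 of 84 members passed (all probe sets, 0.00975%), and 0 had an unadjusted p under 0.05 (all probe sets, 1.47%). Without ischemia the count was also 0 (all probe sets, 0.00975%), with 0 again at an unadjusted p under 0.05 (all probe sets, 2.57%). Rpl22, a large-subunit protein gene, gave 10.86, 10.61 and 10.65 in the ischemic pools and 10.85, 11.01 and 11.52 in the treated ischemic pools at probe set 92857_at. These groups overlapped, with a difference of 0.42 (SE 0.24, 95% interval -0.11 to 0.94, limma adjusted p = 1). In uninjured brain the same probe set ran the other way, from 11.33, 11.20 and 10.75 with saline to 10.89, 10.84 and 10.50 with the drug (-0.35, SE 0.24). The test of whether the drug's difference depended on ischemia gave 0.77 (SE 0.33, adjusted p = 1) for Rpl22, the 1 member with an unadjusted p under 0.05. For that interaction 0 members passed, as did 0% of all probe sets, where 213 of 10259 had an unadjusted p under 0.05. The ribosomal protein median of the interaction was 0.06, and 0.12 without the 2 pools whose labels conflict.

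Non-overlap between drug groups was also sparse. After ischemia 1 of 84 members was higher in all treated pools, Eif2b2 (an eIF2B subunit), against 1.72% of all probe sets, and 2 were lower, Rps20 and Eif3j1, against 2.11%. Without ischemia 0 were higher (all probe sets, 2.73%) and 2 were lower, Eif2d and Eif4g3 (all probe sets, 1.92%). The ribosomal protein median was 0.00 after ischemia and -0.03 without it, beside -0.02 and 0.03 for all probe sets. Without the 2 pools whose labels conflict, these medians were 0.08 and -0.05, and the counts were still 0. With the pools limited to those deposited on the common scale, the median after ischemia was -0.08.

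The 5 single treated brains stood higher than the AEOL control pools for Rplp0, the 1 member that passed a test (1 of 85 members, against 1.19% of all 10541 probe sets tested). The single brains gave 15.49, 15.57, 15.45, 15.48 and 15.39, and the AEOL control pools 14.92, 14.89 and 14.72. Every single brain was above every pool of the study for this probe set, whose highest pool was control 2 at 15.30. Rplp0 rose by 0.63 (SE 0.14, 95% interval 0.34 to 0.93, 1.55-fold, limma adjusted p = 0.0417). The call was narrow: leaving out any 1 of the 8 arrays gave differences of 0.57 to 0.67 with adjusted p of 0.0635 to 0.148, and without AEOL control pool 1 and treated ischemic pool 1, the 2 with conflicting labels, it was 0.67 with an adjusted p of 0.0768. With the deposited scale set as a block the difference was 0.48 (SE 0.28, adjusted p = 0.989). The 3 AEOL control pools were on one scale and the 5 brains on the other, and the pools and the single brains also differed in how many brains an array held.

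In the same comparison an unadjusted p under 0.05 was found for 17 of 85 members (20%) and 2121 of 10541 probe sets (20.1%), so the members' share was that of the whole array. The members named next did not pass. Eif2s2 probe set 97083_at gave 11.53, 11.61, 11.34, 11.41 and 11.25 in the single brains and 10.35, 10.89 and 10.27 in the AEOL control pools. The groups did not overlap (difference 0.93, SE 0.24, limma adjusted p = 0.0777). Its second probe set, 160365_at, differed by 0.28 (SE 0.48). Rpl22 probe set 92857_at differed by 0.65 (SE 0.18, adjusted p = 0.0872) and Rpl19, another large-subunit protein gene, by 0.53 (SE 0.15, adjusted p = 0.0994) at probe set 97483_at. The other probe sets of these 2 genes had the opposite sign, at -1.23 (SE 0.65) for Rpl22 probe set 92856_at and -1.42 (SE 0.77) for Rpl19 probe set 161961_at, and both reached the floor on at least 1 array. Rps18, a small-subunit protein gene, differed by 0.53 (SE 0.17, adjusted p = 0.119). Lower values were found for Eif3j1, at -0.50 (SE 0.17, adjusted p = 0.141), and Rps4l probe set 98148_at, at -1.12 (SE 0.44, adjusted p = 0.184).

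Groups did not overlap for 18 of the 85 members on the higher side and 7 on the lower side, beside 8.37% and 11.3% of all probe sets. The class medians were 0.18 for Rpl, 0.08 for Rps, 0.09 for Eif2, 0.04 for Eif3, -0.15 for Eif4 and 0.19 for Eef1, with -0.05 for all probe sets tested. The sign of the ribosomal protein median, 0.09 over 40 probe sets, turned to -0.03 under quantile normalization. It was 0.12 without the 2 pools whose labels conflict and 0.02 without AEOL control pool 3. Over 78 probe sets, with those that pair a ribosomal protein gene with other symbols added, it was 0.17. Of the other genes of the pathway, Mknk2, a kinase of eIF4E, passed in this comparison at 0.99 (SE 0.19, adjusted p = 0.0174), as did both Atf3 probe sets. In 8 oligodendrocyte marker probe sets the median difference was 0.61, with all 8 higher and 0 passing, and their summed intensity ran from 177000 to 243000 in the single brains and from 110000 to 193000 in the AEOL control pools. The 6 striatal neuron marker probe sets were all lower, with a median of -0.62 and 1 passing (Drd2), and their sums ran from 21900 to 61800 and from 55500 to 65900. The part of these cell types in the ribosomal protein values was not tested.

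The single brains and the treated ischemic pools had received the same treatment. Between them 0 of 85 members passed (all probe sets, 0.0379%). An unadjusted p under 0.05 was found for 3 members (3.53%), Rplp0, Rps27 and Rps24, against 8.61% of all probe sets. Rplp0 was 0.32 higher in the single brains (SE 0.14, adjusted p = 0.567), and Rps27 differed by -0.50 (SE 0.16, adjusted p = 0.565). The groups did not overlap for 7 members on the higher side (all probe sets, 2.95%) and 2 on the lower side (all probe sets, 4.89%). The ribosomal protein median was 0.09, and 0.02 without the 2 pools whose labels conflict. Among themselves the single brains were close: the median standard deviation over the 5 was 0.14 for the members and 0.19 for all probe sets above the floor on the pools. Eif2b4, an eIF2B subunit, ranged only from 11.15 to 11.24 in them.

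Across the pools, the median ribosomal protein level differed more between replicate numbers than between groups. For each array the median deviation of the 40 ribosomal protein probe sets from their own means over the 12 pools was taken. It was -0.13, 0.14 and -0.12 in control pools 1, 2 and 3, -0.05, -0.01 and -0.17 in the AEOL control pools, 0.09, 0.07 and -0.08 in the ischemic pools and -0.06, 0.16 and -0.11 in the treated ischemic pools. The third pool was the lowest in the AEOL control, ischemic and treated ischemic groups, and control pool 3 lay next to control pool 1. Of the sum of squares of these 12 values, 66.3% lay between numbers and 12.8% between groups, and for the Eif3 class the shares were 71.1% and 8.86%. For all probe sets the shares were 22.3% and 27.9%. In the control, AEOL control and ischemic groups alike, the third pool was lowest for 11 of 40 ribosomal protein probe sets (27.5%) and 17 of 84 members (20.2%), against 12.3% of all probe sets. Over all 4 groups it was lowest for 0 of 40 ribosomal protein probe sets and 2 of 84 members (2.38%), against 3.46% of all probe sets, so none of those 11 was also lowest in treated ischemic pool 3. The 3′ to 5′ signal ratio of the array's actin control probe sets was 1.15 to 1.19 in the third control, AEOL control and ischemic pools and 1.33 to 2.14 in the first and second pools of those groups. In the treated ischemic pools it was 1.68, 1.29 and 1.34, with the second pool lowest. The ratio for Gapdh was lowest in the third pool only among the AEOL control pools, at 1.06, 1.55 and 1.04. The first pool was lowest in the control (0.979, 1.16 and 1.09), ischemic (0.97, 1.32 and 1.06) and treated ischemic groups (0.903, 1.2 and 1.19). The part of RNA integrity in the members' values was not tested.

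**Figure D4:**
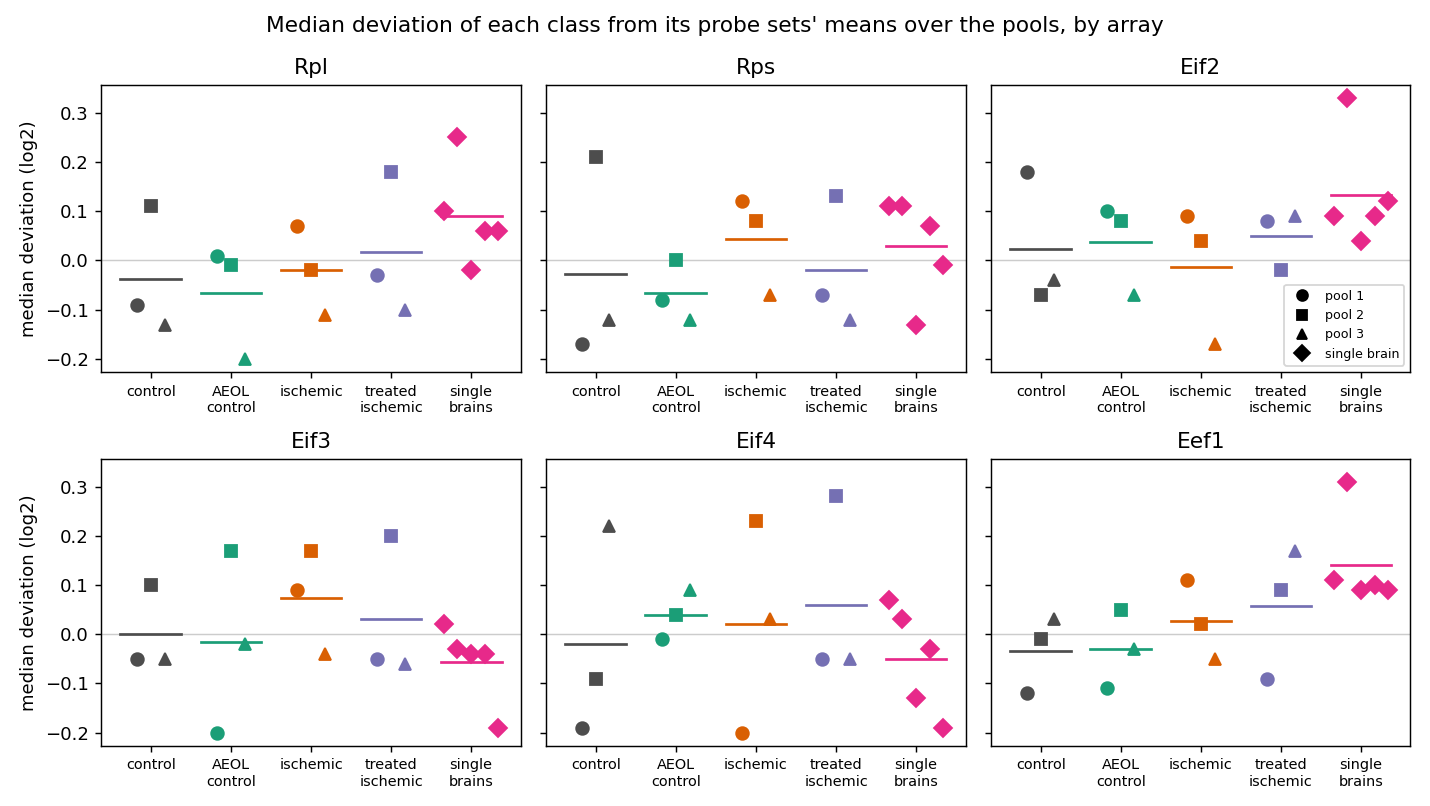
Median deviation of each class from its probe sets' own means over the 12 pools (vertical axis, log2), by array and group (horizontal axis); circles, squares and triangles are pools 1, 2 and 3, diamonds single brains, and lines group means. Deviations stay between -0.20 and 0.33, and for Rpl the third pool is the lowest in each of the 4 pooled groups.

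Probe sets of one gene did not always move together. Of 21 member genes with several probe sets on the array, 13 had probe sets that differed by over 0.5 in a comparison with opposite signs. Only genes with several tested probe sets could show this, so some of the 21, such as Eef1b2 and Eif3e, could not. Rps29 had -0.52 at one probe set and 0.58 at another for ischemia without drug, and Rpl19 had -0.02 and 0.86. For Rpl19 the probe set with the 0.86, 161961_at, ran from 7.59 to 10.86 over the control pools, while 97483_at stayed between 15.32 and 15.94 there. Probe sets with a suffix such as r, f, s, i or g, which by the array's naming may bind other transcripts or use fewer probes, made up 25 of the 102, and for such probe sets related transcripts cannot be told apart.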

How the data were processed

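The deposited table held 1 intensity per probe set and array as the authors left it; the software that made these intensities is not given in the sources used here. The values were linear, and 10 of the 17 arrays shared a trimmed mean of 2500. Every array was rescaled to that mean, taken between the 2nd and 98th percentiles. Values on every array were then floored at 109.5, the 25th percentile over the 12 pools, and put on the log2 scale. Tests took probe sets that exceeded this floor on 3 arrays or more, with limma 3.58.1 in R 4.3.3 (lmFit and eBayes, two-sided, Benjamini-Hochberg over all probe sets tested, threshold 0.05). The 12 pools were fitted in 1 model with 4 groups, and all 17 arrays in 1 with 5 groups. Differences are log2 and understate changes near the floor. The p-values measure the spread between arrays within groups, and the number of arrays limits the precision. In the fit of all 17 arrays, pools and single brains shared 1 estimate of that spread. For the 68 members above the floor on all pools, the median standard deviation was 0.28 within the pooled groups and 0.14 over the single brains. The fit was tested on simulated data. Members, lists and tests were chosen with earlier results of these data known. Named are members that passed, the 3 smallest p in each direction per comparison and members fixed by role. Also named are the steadiest and widest per class and genes whose probe sets disagreed. Other named members, such as Rps18, Rpl6, Rps20 and Rps10, fall outside these rules. Some of them were picked for non-overlapping groups or a pool-number pattern. Rps13 was added after its values were seen. Gene names came from the array's annotation, and all 102 Entrez numbers kept their symbol in RefSeq. No 2 arrays were duplicates (correlations 0.8948 to 0.9798). Same-numbered pools deviated together among the control, AEOL control and ischemic groups (correlations 0.332 to 0.571), and with treated ischemic pools from -0.335 to 0.401, so the numbers were not taken as pairs. Alternatives changed the scaling, floor, filter, probe sets, labels followed, replicate block and arrays left out.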

Additional observations from a re-analysis of the deposited data

Results flagged for a closer look

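In a group of 5 arrays, 1 array can stand apart from the rest by more than a fixed share of the range (0.71), and chance gives about 1 in 20 groups (0.05) such an array. Among the 5 single treated brains, 7 class medians and 19 named probe sets were looked at, and this happened for 3 of the medians and for no probe set, each median taken as the deviation from the probe sets' own means over the pools. The Eef1 median was 0.31 in brain 12 and 0.09 to 0.11 in the other brains. The Eif2 median was 0.33 in the same brain and 0.04 to 0.12 in the others. The Eif3 median was -0.19 in brain 16 and -0.04 to 0.02 in the others. The cause was not tested.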

How the results depend on the processing

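The count of members that passed stayed at 0 in the 6 comparisons among pools, and in single brains against treated ischemic pools, under each alternative run except the values as deposited. There, without rescaling, 81 of 84 members passed for ischemia with drug and 79 of 84 for the drug after ischemia, with ribosomal protein medians of -2.52 and -2.63. For single brains against AEOL control pools 85 of 85 passed (-3.79). Most of the array passed too, with 9221, 9547 and 10443 of all probe sets in the same comparisons. The medians were then -1.24 over both arms, -2.60 for the interaction and -1.17 for single brains against treated ischemic pools, beside -2.65, -2.65, -3.93, -1.30, -2.68 and -1.27 for all probe sets in the same order. Reversed differences as deposited were, for ischemia with drug, Eif2s2 -2.05, Rplp0 -2.32 and Rpl22 -2.25; over both arms, Rps27 -0.96, Rplp0 -1.14 and Eif2b4 -1.12; for the drug after ischemia, Rpl22 -2.21, Eif2b5 -2.20 and Eif4ebp2 -2.41; for the interaction, Rpl22 -1.86, Eif2d -1.76 and Eif2s2 -2.02; against AEOL control pools, Rplp0 -3.25, Eif2s2 -2.96 and Rpl22 -3.23; and against treated ischemic pools, Rplp0 -0.93, Eif3b -0.73 and Eif2b5 -0.80. For ischemia with drug, Rpl38 (0.16) and Rpl37a (0.05) also turned with the scale set as a block and with pools on the common scale only.

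For single brains against AEOL control pools, where 1 member passed, 0 did without the 2 arrays with conflicting labels, with the scale set as a block or with median scaling. The count was also 0 with a floor at the 20th percentile or with any 1 array left out (0 to 0). In a fit of those 2 groups only, 5 of 78 members passed, beside 645 of all probe sets, where the main fit had 125. The ribosomal protein median for single brains against AEOL control pools was 0.24 for probe sets above the floor on all arrays and -0.03 after quantile normalization. It was -0.07 for ischemia without drug under median scaling (all probe sets, -0.09). For the interaction it was 0.06, -0.10 without the pools numbered 3, and -0.07 to 0.12 with 1 pool left out. With the replicate number as a block, 0 members passed in all 6 pool comparisons and the ribosomal protein medians were 0.06, 0.11, 0.07, 0.00, -0.03 and 0.06 in the order of the report; the block changed no member's call. The cause of these shifts was not tested. A floor at the 10th percentile was not run, since that percentile was below 0; the 20th was added after seeing the data. Signals near the floor limit what could be seen for the 18 members left untested in the pools.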

Other observations

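Rps13, a small-subunit protein gene, had a pattern tied to the pool number. Its probe set 93027_r_at gave 12.63, 13.04 and 12.40 in the second AEOL control, ischemic and treated ischemic pools, and at most 7.59 on the other 9 pools, control pool 2 included (7.50), with the single brains at 6.77 to 8.19. The array's control probe set for the 5′ part of 18S ribosomal RNA read 9.72, 9.38, 14.93 and 12.97 in the second control, AEOL control, ischemic and treated ischemic pools, and 10.26 or less on the other pools, where ischemic pool 1 was the highest. The Eif4b probe set 100557_g_at, for a cofactor of the cap helicase, ran the other way, at 12.09, 11.85, 11.78 and 11.79 in the 4 second pools and 12.83 to 13.24 in the other pools. The second pool was highest in all 4 groups for 8 of 84 members (9.52%), among them Rps10, Rps4x, Rpl7a, Eif3e, Eif3k and Eif3m, beside 8.38% of all probe sets. It was lowest for 3 members (3.57%), Eif4b, Eif2ak1 and Eif2s3x, beside 8.63% of all probe sets. What made the second pools differ was not tested.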
